A study of Mus musculus with 16 samples.

Results

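Binding of CBP to chromatin was measured in 3T3-L1 adipocytes treated with rosiglitazone or its solvent, by chromatin immunoprecipitation followed by sequencing (ChIP-seq), in which tags (mapped reads) from fragments bound by a protein are counted along the genome. The values described are those of the 2 CBP libraries, of 16 samples in the study, at all 30588 peaks of the PPARγ list and all 30519 peaks of the C/EBPα list. All 61107 peaks were therefore members, with no selection on CBP. 3T3-L1 is an established mouse fibroblast line that is turned into fat cells in culture by a hormonal cocktail. At day 7 of differentiation the culture medium received 1 µM rosiglitazone in 0.1% DMSO, or 0.1% DMSO alone, for 1 h, and CBP was precipitated with a commercial antibody. The same lists give PPARγ, C/EBPα and MED1 signal in both treatments, and each of these is 1 column per treatment as well. The labels name no genotype or transgene, and no expression values were used here with which the adipocyte state could be checked.

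CBP (CREB-binding protein) is a histone acetyltransferase that does not bind DNA sequence itself and is brought to enhancers by transcription factors. PPARγ is the nuclear receptor that directs fat cell differentiation, and rosiglitazone is a synthetic agonist that changes the surface on which it contacts coactivators. C/EBPα is a second adipogenic factor that shares many enhancers with PPARγ, and MED1 is the Mediator subunit through which nuclear receptors contact the Mediator complex.

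The deposited values are tag signals scaled by the authors, so that 1 tag was worth 2.21 units in the DMSO library of CBP and 6.06 units in the rosiglitazone library. The DMSO library was thus 2.74 times deeper. If the scale is 10 M tags, which no file header states, the libraries held 4.52 M and 1.65 M tags. Peaks of the PPARγ list then held 3.59% of the DMSO library (95% exact Clopper-Pearson interval 3.57% to 3.61%) and 4.95% of the rosiglitazone library (4.92% to 4.99%). For the C/EBPα list these shares were 4.07% (4.05% to 4.09%) and 5.11% (5.07% to 5.14%). The sums behind them were 162446 CBP tags with DMSO and 81670 with rosiglitazone at PPARγ peaks, and 184156 and 84189 at C/EBPα peaks. A single peak rested on few tags. The median PPARγ peak had 2 tags in DMSO and 1 in rosiglitazone, and the median C/EBPα peak had 3 and 1. A peak with no tag still allows up to 6.63 units in DMSO and 18.2 units in rosiglitazone, the value of 3 tags. For this reason CBP is given as sums over groups of peaks, and single peaks only where they carry many tags. Intervals of a ratio between treatments are exact 95% intervals given the tags, and those of a contrast between 2 such ratios are approximate, from the 4 tag sums on a log scale. All of them cover counting error only, and the tags carry no molecular identifiers. With 1 library per treatment the spread between cultures was not measured, and no p-value is given. A ratio of scaled sums is also the ratio of the libraries' shares of tags in those peaks. A rosiglitazone library with less background and more CBP at these peaks in the treated cells cannot be told apart by it. A ratio that differs between groups of peaks within the same 2 libraries is not set by the scaling, but the share of background tags inside peaks was not measured and weighs most where CBP per peak is low.

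In DMSO, CBP was concentrated at sites that both factors occupied. The 11034 PPARγ peaks that overlapped a C/EBPα peak by at least 1 bp, called shared, held 19.8 units of CBP per peak, and the 19554 PPARγ peaks without one held 7.21 units. Shared sites, 11033 in the C/EBPα list, held 22.7 units and the 19486 C/EBPα peaks without a PPARγ peak held 8.02 units. Shared sites thus carried 60.7% of all CBP units at PPARγ peaks, and 61.6% of those at C/EBPα peaks, in the DMSO library. The share of peaks without a CBP tag in either library was 32.1% among PPARγ peaks alone and 9.31% among shared ones, against 28.4% and 7.35% in the C/EBPα list. Across all peaks of the PPARγ list, CBP in DMSO ranked most like MED1 in DMSO (Spearman's rho 0.62, n = 30588 peaks), and less like C/EBPα (0.36) or PPARγ (0.30). Over C/EBPα peaks the values were 0.60 for MED1, 0.42 for PPARγ and 0.28 for C/EBPα (n = 30519 peaks). These correlations are across peaks that share libraries, and they describe the lists only. Each list holds only peaks of its own factor, which limits the range of that factor, and that factor came last in each list. The order of PPARγ and C/EBPα is therefore tied to how the lists were made. The 2 CBP libraries ranked the peaks alike with rho 0.67 at PPARγ peaks and 0.68 at C/EBPα peaks.

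CBP was higher with rosiglitazone in both lists. At PPARγ peaks it went from 11.7 units per peak in DMSO to 16.2 with rosiglitazone, a ratio of 1.38 (95% interval 1.37 to 1.39). At C/EBPα peaks it went from 13.3 to 16.7 units, a ratio of 1.25 (1.24 to 1.26). The direction belongs to the sums: where each peak was weighted equally, as the difference of the treatments over the peak's mean plus 1 unit, the ratio was 0.964 at PPARγ peaks and 0.849 at C/EBPα peaks. That weighting gives peaks with few tags most of the weight, and a peak with no tag in the shallower rosiglitazone library counts as a loss. Among peaks with at least 20 CBP tags, the equally weighted ratios were 1.31 and 1.22.

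The class of site separated the ratios. PPARγ peaks without a C/EBPα peak went from 7.21 to 10.1 units of CBP per peak, a ratio of 1.41 (1.39 to 1.43). Shared sites went from 19.8 to 26.9 units in the PPARγ window, a ratio of 1.36 (1.35 to 1.38), and from 22.7 to 30.6 in the C/EBPα window, a ratio of 1.35 (1.33 to 1.36). C/EBPα peaks without a PPARγ peak went from 8.02 to 8.86 units, a ratio of 1.11 (1.09 to 1.12). The ratio at PPARγ peaks alone was 1.27 times that at C/EBPα peaks alone (1.25 to 1.30), a comparison within the same libraries. Between PPARγ peaks alone and shared sites the difference was small, 1.03 times (1.01 to 1.05). The class difference was also present among peaks with similar numbers of CBP tags, counted over both treatments. Peaks of the PPARγ list are 186 bp wide and those of the C/EBPα list 230 bp, but for 3 peaks. Tags and units per peak are therefore not strictly alike between the lists. Among peaks with 20 to 49 CBP tags, PPARγ peaks alone had 40.4 units in DMSO and a ratio of 1.46 (1.42 to 1.50), and C/EBPα peaks alone had 43.8 units and a ratio of 1.16 (1.13 to 1.19). In absolute terms the order was another: the gain was 7.15 units per peak at shared sites, 2.93 at PPARγ peaks alone and 0.846 at C/EBPα peaks alone. Under the distance to the nearest peak of the other list, CBP at C/EBPα peaks alone had a ratio of 1.17 (1.14 to 1.21) where a PPARγ peak lay under 1 kb away, 1.11 at 1 to 10 kb and 1.06 (1.04 to 1.09) at 10 to 100 kb. Beyond 100 kb it was 1.11 (1.05 to 1.19), so the values did not fall steadily with distance.

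The CBP ratio was higher at PPARγ peaks of high score, and within a class it did not follow the peak score of C/EBPα peaks. Deciles of the authors' peak score were cut over each whole list and then split by class, so a class fills them unequally. The score is 1 value per peak and is not given by treatment. In the PPARγ list the PPARγ ratio itself was 1.38 in the lowest decile and 1.75 in the highest, so this grouping is not free of the ligand. In the lowest decile, the 2501 PPARγ peaks without a C/EBPα peak had a CBP ratio of 1.24 (1.17 to 1.31), with 3.51 units in DMSO and 4.36 in rosiglitazone. The 978 such peaks in the highest decile had 1.63 (1.58 to 1.68), with 22.8 and 37.2 units. At shared sites of the PPARγ list the ratio was 1.17 (1.10 to 1.26) in the lowest decile and 1.50 (1.48 to 1.53) in the highest, where CBP went from 35.0 to 52.7 units. Over the whole PPARγ list the highest decile exceeded the lowest 1.26 times (1.21 to 1.32), and over the whole C/EBPα list 1.10 times (1.05 to 1.15). Within the classes of the C/EBPα list no such grade exceeded counting error. C/EBPα peaks without a PPARγ peak had CBP ratios between 1.07 and 1.13 in all 10 deciles, although CBP itself rose from 4.61 to 16.2 units per peak in DMSO across them. Shared sites ranked by C/EBPα score had ratios between 1.30 and 1.40, and the highest decile was 0.968 times the lowest (0.909 to 1.03). The corresponding value at C/EBPα peaks alone was 1.04 (0.972 to 1.11). By C/EBPα signal instead of score, shared sites of the C/EBPα list had 1.39 (1.35 to 1.43) in the lowest quintile and 1.34 (1.31 to 1.36) in the highest. Those of the PPARγ list had 1.45 (1.41 to 1.50) and 1.33 (1.31 to 1.36), and C/EBPα peaks alone had 1.10 (1.06 to 1.15) and 1.12 (1.10 to 1.15).

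**Figure D1:**
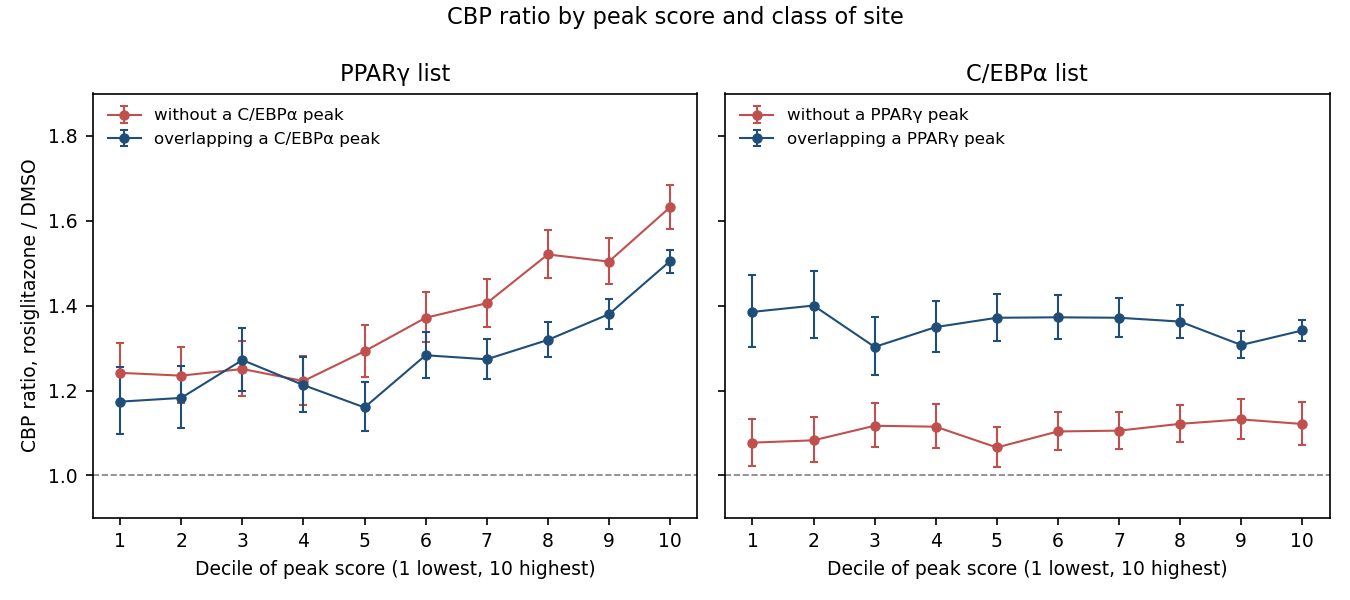
Ratio of summed CBP signal (rosiglitazone over DMSO) on the vertical axis for the deciles of the deposited peak score, in the PPARγ list (left) and the C/EBPα list (right), with red points for peaks without and blue points for peaks with an overlapping peak of the other list. Bars are 95% exact intervals of counting error. The ratio goes from 1.24 to 1.63 and from 1.17 to 1.50 across deciles on the left and stays between 1.07 and 1.13, or 1.30 and 1.40, on the right.

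C/EBPα peaks that missed the PPARγ list still differed in PPARγ tags, and CBP followed them. The 577 such peaks with no PPARγ tag in either library had 3.60 units of CBP per peak with DMSO and 3.54 with the ligand, a ratio of 0.985 (0.867 to 1.12). With 1 to 4 PPARγ tags (4326 peaks) the ratio was 1.02 (0.981 to 1.06), so neither group differed from 1 beyond counting error. It was 1.06 (1.04 to 1.09) with 5 to 9 tags and 1.12 (1.10 to 1.14) with 10 to 19. With 20 to 49 PPARγ tags (1235 peaks) it was 1.22 (1.17 to 1.27), with CBP going from 14.7 to 17.9 units. The 102 peaks with 50 to 99 tags had 1.34 (1.21 to 1.47), and the 29 peaks with 100 or more had 1.23 (1.04 to 1.44). At PPARγ peaks without a C/EBPα peak the ratio was 1.21 (1.15 to 1.27) with 10 to 19 PPARγ tags, 1.35 (1.33 to 1.38) with 20 to 49, 1.56 (1.51 to 1.60) with 50 to 99 and 1.64 (1.58 to 1.71) with 100 or more. PPARγ tags were counted over both treatments, and PPARγ signal was itself higher with rosiglitazone in all these groups with PPARγ tags, so the grouping is not free of the ligand. Ranked by PPARγ in DMSO alone, the CBP ratio went from 1.28 in the lowest quintile of the PPARγ list to 1.47 in the highest, and from 1.08 to 1.38 over the quintiles of the C/EBPα list.

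**Figure D2:**
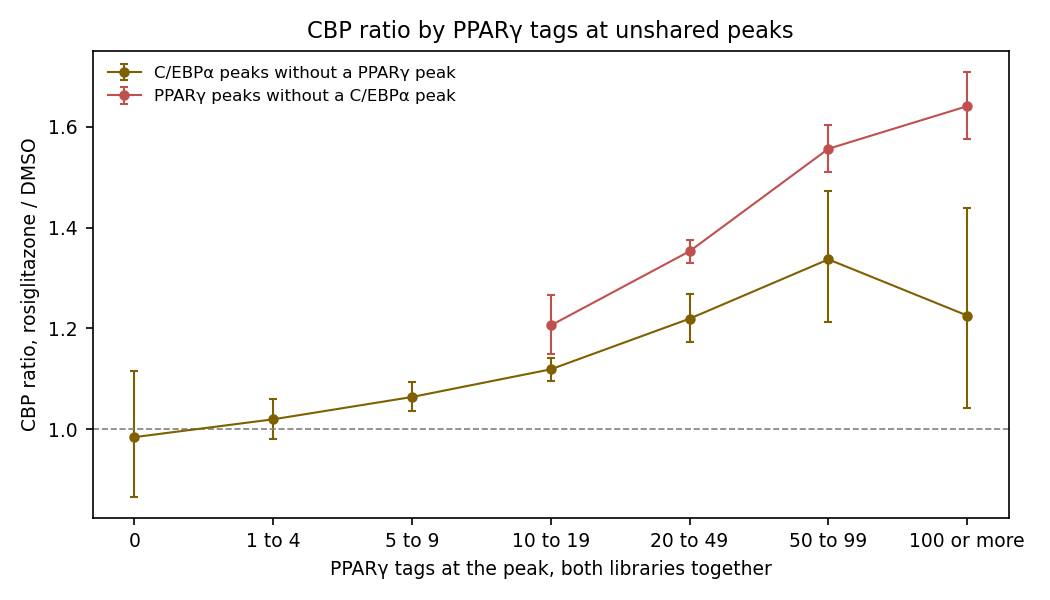
Ratio of summed CBP signal (rosiglitazone over DMSO) against the number of PPARγ tags at the peak, for C/EBPα peaks without a PPARγ peak (brown) and PPARγ peaks without a C/EBPα peak (red), with 95% exact intervals of counting error. C/EBPα peaks with no PPARγ tag sit at 0.985, and PPARγ peaks with 100 or more tags at 1.64. The groups with 0 and with 100 or more tags in brown hold 577 and 29 peaks.

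PPARγ peaks with no C/EBPα tag had little CBP and a high ratio. The 1455 PPARγ peaks outside the C/EBPα list with no C/EBPα tag went from 4.54 to 7.32 units of CBP per peak, a ratio of 1.61 (1.52 to 1.71). With 1 to 4 C/EBPα tags the ratio was 1.42 (1.39 to 1.45), and with 5 to 9 it was 1.37 (1.35 to 1.40), with 8.56 units in DMSO. It fell no further with 10 to 19 tags, at 1.39 (1.34 to 1.45), or with 20 to 49, at 1.41 (1.31 to 1.51) over 152 peaks. The 14 peaks with 50 to 99 tags had 1.09 (0.828 to 1.42) and the 6 with 100 or more had 1.48 (1.19 to 1.83). Peaks of the PPARγ list were also split into tertiles by PPARγ signal and by C/EBPα signal. In the tertile with most PPARγ, the CBP ratio was 1.64 (1.58 to 1.70) where C/EBPα was in its lowest tertile and 1.41 (1.39 to 1.43) where it was in its highest. In the tertile with least PPARγ these values were 1.30 (1.25 to 1.36) and 1.19 (1.14 to 1.23). The lower ratio at sites with more C/EBPα was thus seen at both ends of PPARγ signal. The same split of the C/EBPα list gave 1.41 (1.37 to 1.45) and 1.34 (1.32 to 1.35) in the tertile with most PPARγ. In the tertile with least PPARγ it gave 1.02 (0.981 to 1.06) and 1.09 (1.04 to 1.15), and these intervals overlap. The lower ratio with more C/EBPα was thus not seen there.

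MED1, the other coactivator measured, had higher ratios than CBP over the lists. Its ratio was 1.18 times that of CBP over the PPARγ list (1.17 to 1.19), and 1.14 times over the C/EBPα list (1.13 to 1.15). These values compare 4 libraries, and the shares of background in them were not measured. The number of CBP tags at a peak set the coactivators apart. Among C/EBPα peaks lacking a PPARγ peak, those with 1 to 4 CBP tags (7411 peaks) had a CBP ratio of 0.997 (0.963 to 1.03) and a MED1 ratio of 1.30 (1.27 to 1.34). Those with 20 to 49 CBP tags (913 peaks) had 1.16 (1.13 to 1.19) for CBP and 0.874 (0.839 to 0.909) for MED1. In the 93 peaks with 50 to 99 CBP tags, CBP went from 96.5 to 114 units per peak, a ratio of 1.18 (1.12 to 1.25), while the MED1 ratio was 0.568 (0.509 to 0.632). CBP was thus higher and MED1 lower at the same peaks, in the scaled libraries. Only 4 C/EBPα peaks alone had 100 or more CBP tags, and there both ratios were above 1, 1.32 (1.08 to 1.61) for CBP and 1.42 (1.20 to 1.68) for MED1. At PPARγ peaks without a C/EBPα peak the MED1 ratio went from 1.70 (1.66 to 1.74) at 1 to 4 CBP tags to 1.35 (1.26 to 1.43) at 50 to 99, and the CBP ratio was 1.25 (1.21 to 1.29) and 1.37 (1.29 to 1.45) in these groups, with 1.46 at 20 to 49 tags between them. The 11 such peaks with 100 or more CBP tags had a MED1 ratio of 1.67 (1.49 to 1.88) and a CBP ratio of 1.57 (1.42 to 1.74). At shared sites of the C/EBPα list the MED1 ratio went from 1.79 to 1.27 over the same groups, and the CBP ratio from 1.23 to 1.36. The groups were formed on CBP tags of both libraries, so the CBP ratios along them are descriptive.

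**Figure D3:**
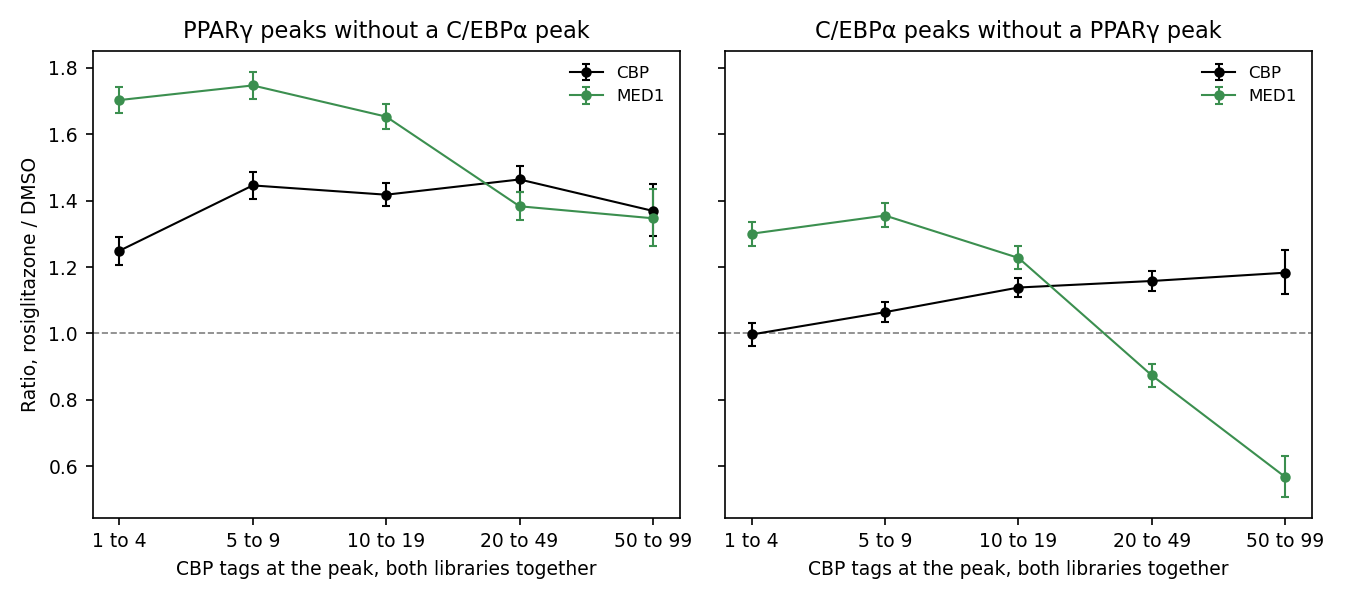
Ratio of summed signal (rosiglitazone over DMSO) for CBP (black) and MED1 (green) against the number of CBP tags at the peak, at PPARγ peaks without a C/EBPα peak (left) and C/EBPα peaks without a PPARγ peak (right), with 95% exact intervals of counting error. On the right the MED1 ratio goes from 1.30 to 0.568 and the CBP ratio from 0.997 to 1.18. Peaks with 100 or more CBP tags, 11 on the left and 4 on the right, are not drawn.

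Peaks were also sorted by the ratio of another factor, and the CBP ratio was read along the groups. The wide range of the sorting factor itself comes from the sorting. Of the peaks of the PPARγ list with at least 20 MED1 tags, the quintile with the lowest MED1 ratio (0.541 as a sum) had a CBP ratio of 1.40 (1.36 to 1.43), and the quintile with the highest (4.01) had 1.47 (1.42 to 1.52). The quintiles between them had CBP ratios of 1.37, 1.29 and 1.34. For C/EBPα peaks the CBP ratios were 1.34, 1.32, 1.31, 1.33 and 1.41, while MED1 went from 0.473 to 3.62. The quintile with the lowest MED1 ratio was the one with most CBP, at 49.5 units per peak in DMSO in the PPARγ list against 24.3 in the quintile with the highest. Among C/EBPα peaks these levels were 59.3 and 26.6 units. Sorted by the PPARγ ratio, with at least 20 PPARγ tags, the CBP ratios of the PPARγ list were 1.32 (1.29 to 1.35), 1.42, 1.39, 1.36 and 1.45 (1.42 to 1.47), while PPARγ went from 0.602 to 4.09. Those of the C/EBPα list were 1.29 (1.26 to 1.32) in the lowest quintile and 1.42 (1.39 to 1.45) in the highest, so the ends differed by more than counting error in both lists. Sorted by the C/EBPα ratio, the CBP ratio went from 1.28 in the lowest quintile to 1.44 in the highest at PPARγ peaks, and from 1.21 to 1.36 at C/EBPα peaks, and the MED1 ratio went the other way, from 1.98 to 1.32 and from 1.85 to 1.17. Where both coactivators had at least 20 tags at a peak, the log2 ratios of CBP and MED1 had a Spearman's rho of 0.01 (n = 1695 peaks) at PPARγ peaks and 0.06 (n = 1738) at C/EBPα peaks. At this depth a single peak's ratio is mostly counting noise, so these coefficients say little about the sites.

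On the deposited scale, all 20 chromosomes with CBP tags had a CBP ratio whose interval lay above 1 in both lists. A difference in background between the 2 libraries cannot be told apart from this by counts above 1. In the PPARγ list, chromosome 9, the highest, had 1.11 times the ratio of all other chromosomes together (1.06 to 1.15). Chromosome 10, the lowest, had 0.919 times (0.882 to 0.957). Both were picked as the ends of the range, and their intervals do not allow for that choice. Of the chromosomes in the C/EBPα list the lowest ratio was 1.17 on chromosome 10 and the highest 1.33 on chromosome 12. In windows of 1 Mb with at least 200 CBP tags, 390 of 407 had a ratio above 1 in the PPARγ list, with a median of 1.41 and quartiles of 1.23 and 1.59. The interval lay above 1 in 275 windows and below 1 in 2, and it held the ratio of the whole list in 337 windows (82.8%). Among C/EBPα peaks 432 of 478 windows were above 1, with a median of 1.28, and the interval held the list's ratio in 399 windows (83.5%). Counting error alone would leave the list's ratio in about 95% of intervals, so in both lists the windows differed by more than that. The lowest window of the PPARγ list lay on chromosome 6, from 89000001 to 90000000 (mm9), with 0.686 (0.487 to 0.949) over 26 peaks, and in the C/EBPα list it had 0.704 (0.505 to 0.964) over 18 peaks. Peaks with 3 neighbours had slightly higher ratios than peaks with none in both lists, and beyond that the lists differed. In the PPARγ list the ratio was 1.34 with no other peak of the list within 10 kb and 1.45 with 3, and then 1.39 with 4 and 1.27 with 5 or more. For C/EBPα peaks it was 1.21 with none, 1.34 with 3 and 1.73 (1.45 to 2.05) in the 57 peaks with 5 or more.

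**Figure D4:**
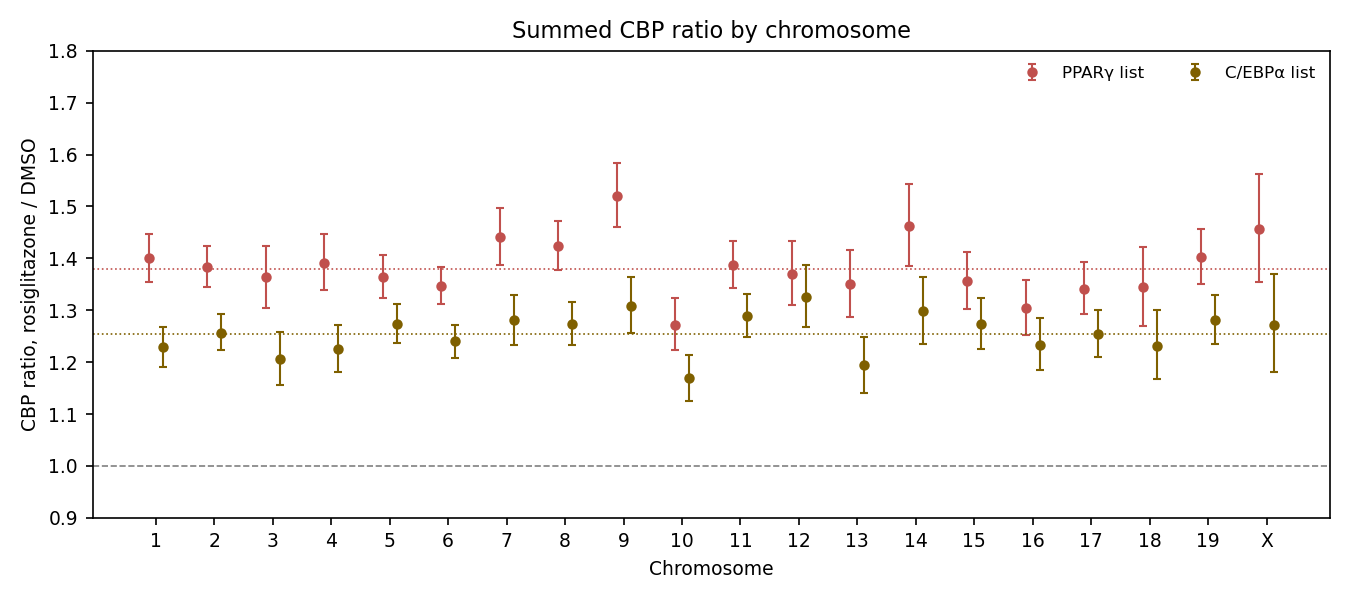
Ratio of summed CBP signal (rosiglitazone over DMSO) for each chromosome in the PPARγ list (red) and the C/EBPα list (brown), with 95% exact intervals of counting error and dotted lines at the ratios of the whole lists, 1.38 and 1.25. All 20 chromosomes lie above 1 in both lists, and chromosomes 9 and 10 are the highest and lowest in red.

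Among single peaks, 3419 of the PPARγ list (11.2%) had at least 20 CBP tags. Of these, 788 had at least 2-fold more CBP with rosiglitazone (23.0%) and 205 at least 2-fold less (6.00%). In the C/EBPα list 3821 peaks had that many tags, and 757 were at least 2-fold higher (19.8%) and 267 at least 2-fold lower (6.99%). These are counts past a fold with no test. The counting interval lay above 1 at 604 of the 788 higher peaks and below 1 at 44 of the 205 lower ones. For C/EBPα peaks this held at 550 of the 757 higher and 68 of the 267 lower ones. Set against the list's own ratio instead of 1, the interval lay above it at 236 of the 3419 PPARγ peaks and below it at 209. Among the 3821 C/EBPα peaks these counts were 291 and 196. By class, again among peaks with at least 20 CBP tags, 26.9% of 971 PPARγ peaks alone were 2-fold higher and 7.21% lower. At the 2448 shared sites of the PPARγ list the shares were 21.5% and 5.51%. At 1010 C/EBPα peaks alone they were 15.6% and 11.6%, and at 2811 shared sites of the C/EBPα list 21.3% and 5.34%. The split depends on the scale. Centred on each list's own ratio, 274 peaks were 2-fold higher and 437 lower among PPARγ peaks, and 358 and 440 among C/EBPα peaks. Scaled so that C/EBPα peaks alone had a ratio of 1, the counts were 623 and 247, and 550 and 325. Among the peaks with at least 50 CBP tags, 405 of 506 PPARγ peaks and 516 of 681 C/EBPα peaks were above 1, and 406 and 584 of them were shared sites. The interval held the list's ratio at 432 of the 506 peaks (85.4%) and at 566 of the 681 (83.1%). Both shares are below the 95% or so that counting error alone would give.

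**Figure D5:**
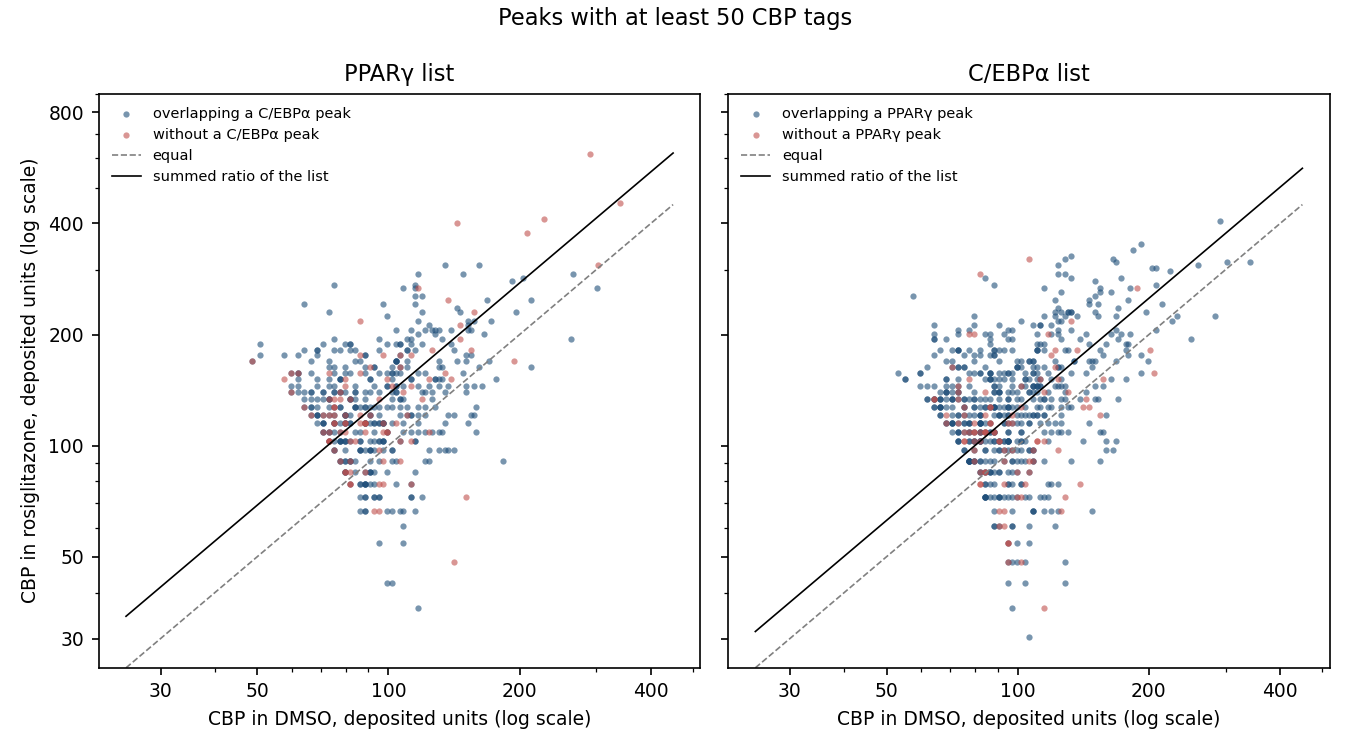
CBP signal in rosiglitazone (vertical axis) against DMSO (horizontal axis), in deposited units on log scales, for the 506 peaks of the PPARγ list (left) and the 681 of the C/EBPα list (right) with at least 50 CBP tags, with blue points for shared sites and red points for the others. The dashed line marks equal signal and the solid line the ratio of the whole list. Of these peaks 405 and 516 lie above the dashed line, and the edge at the lower left comes from the minimum of 50 tags.

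The 10 peaks with most CBP in each list, by the mean of both treatments, had ratios from 0.888 to 2.79 in the PPARγ list, 9 of them above 1, and from 0.793 to 1.85 in the C/EBPα list, 8 of them above 1. All 10 of the C/EBPα list were shared sites, and 4 of the 10 of the PPARγ list were. Since 1 rosiglitazone tag weighs more than 1 DMSO tag, this ranking leans towards peaks with many rosiglitazone tags. The deposited coordinates are those of mm9, and genes were not assigned to them here. The levels of these peaks were not set against input. The peak with most CBP lay at chrX:166435931-166436117 and went from 290 units (131 tags) in DMSO to 619 units (102 tags) with the ligand, a ratio of 2.14 (1.63 to 2.79). PPARγ there was 380 and 425 units, C/EBPα 28.7 and 11.5, and MED1 112 and 429. A neighbour at chrX:166429106-166429292 went from 208 to 376 units of CBP, a ratio of 1.81 (1.29 to 2.52), with MED1 at 94.4 and 551 units. Both were PPARγ peaks without a C/EBPα peak, at which both coactivators differed by a larger factor than PPARγ, at 311 and 369 units in the neighbour. With 1 further peak they form the 3 PPARγ peaks at that end of the chromosome, and without them chromosome X had a ratio of 1.39 (1.29 to 1.50).

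Chromosome 10 held a group of CBP-rich peaks whose members differed. In the 1 Mb from 117000001 to 118000000 (mm9), 28 PPARγ peaks carried 75.2 units of CBP per peak with DMSO and 92.5 with the ligand, a ratio of 1.23 (1.09 to 1.38). The 41 C/EBPα peaks there had 52.2 and 51.6 units, a ratio of 0.989 (0.873 to 1.12), while their MED1 ratio was 1.62 (1.47 to 1.77). In DMSO these peaks also held 156 units of C/EBPα, 95.1 of MED1 and 23.6 of PPARγ per peak. The other C/EBPα peaks of the chromosome held 23.4, 15.7 and 7.73, and 12.7 of CBP. The window was thus rich in all of these proteins and not in CBP alone, and its levels were not set against input. The PPARγ peak at chr10:117147642-117147828 went from 228 to 412 units of CBP, a ratio of 1.81 (1.31 to 2.48). The peak at chr10:117154738-117154924 went from 340 to 455 units, a ratio of 1.34 (1.00 to 1.77). The shared site at chr10:117183471-117183657 had 301 units of CBP with DMSO and 267 with the ligand, a ratio of 0.888 (0.617 to 1.26), with C/EBPα at 2915 and 1384 units and MED1 at 573 and 987. Without this window chromosome 10 had a ratio of 1.28 for PPARγ peaks and 1.19 for C/EBPα peaks, so the chromosome lay below the ratio of its list without the window too.

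At several CBP-rich sites MED1 and CBP parted. The shared site at chr6:115188718-115188904 had 265 units of CBP with DMSO and 291 with the ligand, a ratio of 1.10 (0.768 to 1.55), while MED1 had 349 and 38.3 units. At chr6:51166485-51166671 CBP had 192 and 279 units, a ratio of 1.45 (0.992 to 2.10), and MED1 had 168 and 30.6. In the C/EBPα window at chr6:17228434-17228664 CBP went from 192 to 352 units, a ratio of 1.83 (1.29 to 2.58), and MED1 from 199 to 30.6. At chr17:31840597-31840827 CBP went from 203 to 303 units, a ratio of 1.49 (1.03 to 2.13), and MED1 from 227 to 61.2. In that order, PPARγ had 29.9 and 24.1, 48.4 and 51.5, 76.5 and 74.8, and 65.1 and 48.2 units in DMSO and with the ligand. In the MED1 library of rosiglitazone 1 tag was worth 7.65 units, so the low MED1 values at these sites rest on few tags. A further 2 peaks had far more CBP than MED1 in deposited units. The PPARγ peak at chr9:31325019-31325205 went from 144 units (65 tags) to 400 units (66 tags) of CBP, a ratio of 2.79 (1.95 to 3.99), with C/EBPα at 2.21 and 5.09 units and PPARγ at 9.67 and 29.1. MED1 had 21.0 units in DMSO and no tag in rosiglitazone there. The peak at chr10:107342630-107342816 had 303 and 309 units of CBP, a ratio of 1.02 (0.726 to 1.42), with C/EBPα at 22.1 and 20.4 and MED1 at 21.0 and 38.3.

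The 5 highest and 5 lowest ratios of each list were taken among the peaks with at least 50 CBP tags, so their values describe the ends of the range and are not tested. In the PPARγ list the highest 5 lay between 3.49 and 3.78 and the lowest 5 between 0.311 and 0.484. Those of the C/EBPα list lay between 3.12 and 4.43 and between 0.286 and 0.378. Of the extremes of the PPARγ list, 1 of the highest 5 and 2 of the lowest 5 overlapped an extreme of the same kind in the C/EBPα list, whose windows count many of the same tags. The site at chr5:35967433-35967619 went from 75.2 units (34 tags) to 273 units (45 tags) of CBP, a ratio of 3.63 (2.27 to 5.85), with PPARγ at 73.0 and 232 units and MED1 at 217 and 582. The site at chr4:137043504-137043734 went from 57.5 to 255 units, a ratio of 4.43 (2.65 to 7.53), with PPARγ at 122 and 401 and MED1 at 129 and 459. CBP, PPARγ and MED1 were thus all higher at both sites. The site at chr17:85011392-85011578 had CBP at 64.1 and 243 units, a ratio of 3.78 (2.29 to 6.33), with C/EBPα at 41.9 and 143 units and MED1 at 73.4 and 23.0. The C/EBPα peak at chr9:88447987-88448217, whose nearest PPARγ peak lay 23381 bp away, had CBP at 81.8 and 291 units, a ratio of 3.56 (2.27 to 5.62), with PPARγ at 4.40 and 8.31 units.

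Among the lowest ratios, the shared site at chr6:89287681-89287867 had 53 tags of CBP in DMSO and 6 with the ligand, a scaled ratio of 0.311 (0.109 to 0.722). PPARγ there was 51.0 and 145 units, C/EBPα 700 and 411, and MED1 108 and 184, so CBP and C/EBPα were lower and PPARγ and MED1 higher. It lies in the chromosome 6 window with the lowest ratio, and its tags are part of the 188 and 47 CBP tags of that window in the PPARγ list. The C/EBPα list counts the same site, so the low window ratio is not separate from this peak in either list. The site at chr16:22067567-22067753 had 102 and 42.4 units of CBP, a ratio of 0.418 (0.159 to 0.931), and the PPARγ peak at chr11:68910516-68910702 had 150 and 72.8 units, a ratio of 0.484 (0.239 to 0.902), with MED1 at 115 and 245. Each of these values rests on 6 to 12 tags in rosiglitazone.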

How the data were processed

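ChIP-seq of 3T3-L1 adipocytes was used, with 1 CBP library per treatment. The tools are FastQC, Bowtie, HOMER and edgeR and the build mm9, per the submitters' processing notes. Their versions and settings: not given in the sources used here. The authors deposited a PPARγ and a C/EBPα peak list, each with a peak score, a focus ratio (a fraction per peak) and, for the 4 proteins in each treatment, a scaled tag signal. The focus ratio only grouped peaks and is not reported. No replicate is named in the PPARγ columns. The MED1 column headed BRL was taken as the rosiglitazone sample. No column of per-sample values was left unmatched (0).

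All signal values deposited by the authors (100%) were multiples of 1 step per column, within 0.02 steps, so tags were recovered. A count model of tags needs replicates and was not run, so edgeR was not used here. Ratios are sums of tags times the step, rosiglitazone over DMSO, with exact 95% Clopper-Pearson intervals. Intervals of a ratio between groups of peaks use the counting error of the 4 sums on a log scale. Peaks were shared when at least 1 bp overlapped. The rule for named peaks took, per list, the 10 peaks with most CBP and, among peaks with at least 50 CBP tags, the 5 highest and 5 lowest ratios, of which some are printed. The windows on chromosomes 6 and 10 were singled out after their values were seen. Members, groups and rule were chosen with earlier results of these data known. Alternatives changed the peaks included, the weighting, the overlap, the scale and the tag minimum. Scripts ran in Python 3.11.15 with numpy 2.4.6, pandas 2.3.3 and scipy 1.17.1, and were tested on simulated data. Libraries of RNA polymerase II and of input were not used here.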

Additional observations from a re-analysis of the deposited data

How the results depend on the processing

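The summed CBP ratios of the PPARγ and C/EBPα lists (1.38 and 1.25) and the contrast of PPARγ peaks alone over C/EBPα peaks alone (1.27) were recomputed. With the higher-scoring peaks only they were 1.44, 1.27 and 1.34, and with at least 20 CBP tags per peak 1.40, 1.32 and 1.25. With each peak weighted equally the list ratios fell below 1, to 0.964 and 0.849: by its construction, 1 tag alone moves a peak by 1.05 units of the measure in DMSO and 1.50 in rosiglitazone, and peaks with no rosiglitazone tag outnumber those with no DMSO tag. With equal weight at peaks with at least 20 tags, an alternative chosen after seeing the data, the values were 1.31, 1.22 and 1.25. The contrast was 1.23 when shared peaks had to overlap by 0.5 of their length and 1.31 without peaks that had one of the other list within 1 kb. Scaled to C/EBPα peaks alone, a log2 shift of 0.14, the list ratios were 1.25 and 1.13. Counts of peaks at least 2-fold higher and lower were 7417 and 7768 for PPARγ peaks, against 6552 and 8755 for C/EBPα peaks, with no minimum of tags. With at least 50 tags they were 67 and 6, against 89 and 13. Centred on the list's ratio they were 274 and 437, against 358 and 440. The other 23 recomputed values moved by less than the counting interval or, for counts, 1.5 times. Among them was leaving out CBP-rich stretches of chromosomes 10 and X, also chosen after seeing the data. No paired analysis was possible because CBP has 1 library per treatment. Depth limits single peaks: 45.9% of the PPARγ list and 45.4% of the C/EBPα list had no CBP tag in rosiglitazone.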
